A study of Homo sapiens with 9 samples.

Results

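The genes described here are 55 human cell cycle genes, measured in cultured AC16 cells with and without the drug CDDO-Me. They were chosen by symbol, through their Ensembl gene identifiers, from the 58299 genes of a deposited read count table. Earlier results of these data were known when they were chosen. They comprise 23 genes of S phase, the period of DNA copying, 27 genes of G2 and mitosis (G2/M), and 5 regulators of G1, the stage before S phase. Of the 55, 54 passed the filter on low counts and were tested among 14965 genes in all. The exception was CCND2, the gene for cyclin D2, with 0 counts in 7 of 9 libraries and 6 counts over all of them.

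AC16 is an established human line made by fusing cells of the adult heart ventricle with SV40-transformed fibroblasts, and it divides in culture. Every sample was this line, grown in medium with serum and with no genetic change. There were 3 groups of 3 libraries: vehicle (0.1% DMSO) for 72 h, CDDO-Me at 100 nM for 24 h, and CDDO-Me at 100 nM for 72 h. CDDO-Me (bardoxolone methyl) is a triterpenoid made by synthesis. It reacts with KEAP1 and so stabilizes the transcription factor NRF2. Some titles and the series text write CDDO where the treatment field has CDDO-Me, and the treatment field was followed. No vehicle group of 24 h was among the samples. Drug and culture time therefore cannot be told apart when the 24 h group is compared with DMSO or with the 72 h treated group. No label states that replicates were cultured separately, and a p-value here therefore covers the spread among these libraries only, which may be technical in part.

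A dividing cell makes the transcripts of S phase genes mainly as it leaves G1, when E2F transcription factors are freed from the RB protein family. Genes for mitosis follow later, through B-MYB and FOXM1 acting with the MuvB complex, which binds promoter elements called CHR. D cyclins with their kinases start this sequence, and CDK inhibitors such as p27 and p21 hold it back, so transcripts of both gene sets are often read as marks of proliferation. SV40 large T antigen, the transforming protein of that virus, binds RB and p53.

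The libraries held between 16898977 and 27910031 counts, and the S phase and G2/M members had between 36 and 17613 counts in a library. Replicates differed by more than sampling noise in every group (chi-square per degree of freedom 2.06 to 36.3). The third 24 h library stood apart from the other two of its group (36.3 and 34.3, against 4.64 between those), and results that rest on it are given with and without it. DMSO replicate 1 was further from its group than the others were from each other, and it was left out together with that library as a further alternative. NQO1, a classical NRF2 target and here a check of the treatment, had 420 to 495 CPM (counts scaled to the library's TMM-adjusted total) in DMSO, 1686 to 2169 at 24 h and 3306 to 3386 at 72 h. The check held 3 NRF2 targets. At 24 h 1 of 3 was called higher (adjusted p under 0.05, edgeR). All 3 were higher at an unadjusted p under 0.05, where 986 of all 14965 genes were. At 72 h 3 of 3 were called higher. Of all genes 2.15% were called at 24 h and 6.02% at 72 h. Of 12 heart muscle markers 6 to 8 were at 0 counts in each library, among them MYH6, MYH7, MYL2, RYR2 and NKX2-5 in all 9, and the 12 summed to 5.74 to 9.42 CPM. The 9 fibroblast markers were all detected and summed to 12667 to 19148 CPM. Most of the heart muscle sum was TTN, at 6.04 to 6.84 CPM as group means, so the defining markers of that tissue were absent or near 0.

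Promoters of the members were searched for the elements that these programmes are known to use. Windows of 300 bases around the transcription start, 250 before and 50 after, were matched for 44 of the 55 members in RefSeq (GRCh38.p14). Both strands were searched for an E2F-like element (TTTNNCGC), the CCAAT box (CCAAT) and the CHR element (TTTGAA or TTCGAA). The E2F-like element was in 12 of 19 S phase promoters (63.2%) and in 3 of 22 G2/M promoters (13.6%), against 6.89% of all 35114 promoters of the same length. The CHR element was in 14 of 22 G2/M promoters (63.6%) and 2 of 19 S phase promoters (10.5%), against 16.4% of all. The CCAAT box was in 17 of 22 G2/M promoters (77.3%) and 12 of 19 S phase promoters (63.2%), against 34.6% of all. A CCAAT box and a CHR element stood together in 13 of 22 G2/M promoters (59.1%), against 6.38% of all. A match describes letters in the window and is not a measured binding site.

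The following stretches run 5′ to 3′ on the gene's strand, from 220 bases before the start to 30 after. They show examples from both gene sets, and capitals mark the matched elements on either strand. The first 3 are S phase genes. UHRF1, which reads hemimethylated DNA behind the replication fork, has 2 E2F-like matches and 1 CCAAT box. PCNA, the sliding clamp of DNA polymerases, has 1 and 3. RRM1, the large subunit of ribonucleotide reductase, has none of the first, 1 CCAAT box and 1 CHR match. A CCAAT box together with a CHR element, in any number and with or without E2F-like matches, is in 13 of 22 G2/M and 2 of 19 S phase promoters.
UHRF1, chr19:4909281-4909530, plus strand: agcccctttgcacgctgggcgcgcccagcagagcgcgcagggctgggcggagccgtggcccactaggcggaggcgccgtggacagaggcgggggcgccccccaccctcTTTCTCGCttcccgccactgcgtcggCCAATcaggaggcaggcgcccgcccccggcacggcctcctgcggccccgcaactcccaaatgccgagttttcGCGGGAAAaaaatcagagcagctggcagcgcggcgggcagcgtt
PCNA, chr20:5126593-5126842, minus strand: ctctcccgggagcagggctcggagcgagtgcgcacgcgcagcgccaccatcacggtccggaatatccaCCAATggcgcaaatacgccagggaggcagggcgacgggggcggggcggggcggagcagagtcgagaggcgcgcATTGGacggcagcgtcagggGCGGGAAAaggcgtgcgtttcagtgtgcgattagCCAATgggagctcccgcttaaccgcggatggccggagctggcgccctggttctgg
RRM1, chr11:4094465-4094714, plus strand: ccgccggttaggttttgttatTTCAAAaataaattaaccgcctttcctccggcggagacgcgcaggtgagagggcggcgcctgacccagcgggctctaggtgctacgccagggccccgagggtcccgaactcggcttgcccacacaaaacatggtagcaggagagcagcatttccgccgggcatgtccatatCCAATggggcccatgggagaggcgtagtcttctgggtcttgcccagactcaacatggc

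The next 3 are G2/M genes, each with CCAAT boxes and at least 1 CHR element in the window. MKI67 encodes Ki-67, which coats mitotic chromosomes, and here 1 of its 2 CHR matches shares a base with the CCAAT box beside it. CENPF encodes a kinetochore protein, and its 1 CHR match lies past the end of the stretch shown. PLK1 encodes polo-like kinase, which acts at mitotic entry and on the spindle.
MKI67, chr10:128126394-128126643, minus strand: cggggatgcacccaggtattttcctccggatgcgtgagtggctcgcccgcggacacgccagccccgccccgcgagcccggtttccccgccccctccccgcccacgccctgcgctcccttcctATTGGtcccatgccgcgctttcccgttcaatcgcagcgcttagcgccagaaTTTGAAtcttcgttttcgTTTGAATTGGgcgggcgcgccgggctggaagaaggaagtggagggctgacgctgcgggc
CENPF, chr1:214602975-214603224, plus strand: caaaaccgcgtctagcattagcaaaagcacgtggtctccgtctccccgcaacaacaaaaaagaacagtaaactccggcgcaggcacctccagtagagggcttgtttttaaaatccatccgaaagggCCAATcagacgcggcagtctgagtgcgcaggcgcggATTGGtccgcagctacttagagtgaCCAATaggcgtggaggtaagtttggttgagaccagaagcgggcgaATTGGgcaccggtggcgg
PLK1, chr16:23678669-23678918, plus strand: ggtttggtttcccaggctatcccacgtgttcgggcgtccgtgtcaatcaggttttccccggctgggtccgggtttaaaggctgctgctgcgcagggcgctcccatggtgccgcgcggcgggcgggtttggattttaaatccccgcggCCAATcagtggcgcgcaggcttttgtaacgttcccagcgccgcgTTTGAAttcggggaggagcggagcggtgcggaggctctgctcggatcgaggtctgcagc

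CDKN1B, the gene for the CDK inhibitor p27, is shown as a member that changed, chosen for this after its values were seen. It has CCAAT boxes and none of the other elements in the window, and 1 of its 3 CCAAT boxes lies past the stretch.
CDKN1B, chr12:12717148-12717397, plus strand: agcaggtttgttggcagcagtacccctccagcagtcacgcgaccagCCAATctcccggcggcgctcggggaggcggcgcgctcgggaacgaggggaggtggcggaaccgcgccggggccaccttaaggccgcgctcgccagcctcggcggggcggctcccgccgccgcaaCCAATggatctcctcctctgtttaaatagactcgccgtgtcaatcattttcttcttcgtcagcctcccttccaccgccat

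Levels in vehicle cells spanned a wide range in both gene sets. On the scale of RPKM, which divides CPM by exon length, PCNA was highest of the S phase genes in DMSO (199 ± 17.8, SD, n = 3), followed by MCM7 at 107 and MCM4 at 87.1, both subunits of the replicative helicase. The lowest were the E cyclins and E2F8, a repressor of E2F targets: CCNE2 stood at 3.58 RPKM, E2F8 at 2.82 and CCNE1 at 1.23. Among G2/M genes CDC20, an activator of the anaphase-promoting complex, was highest (183 ± 5.52 RPKM). UBE2C, the ubiquitin-conjugating enzyme of the same complex, stood at 137, the spindle assembly factor TPX2 at 135 and cyclin B1 (CCNB1) at 127, ranges that overlapped between UBE2C, TPX2 and CCNB1. The lowest were the mitotic kinesin CENPE (9.83 RPKM) and the CDK1-activating phosphatase CDC25C (7.24 RPKM). The median was 45.6 RPKM in each set.

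**Figure D1:**
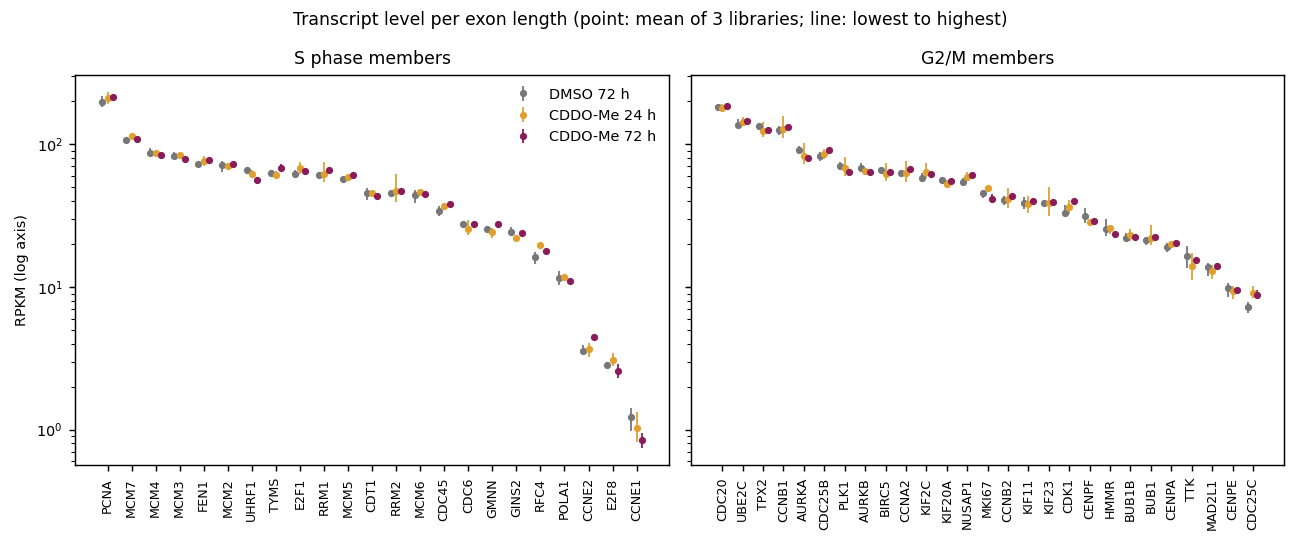
Levels of the 23 S phase (left) and 27 G2/M genes (right) in RPKM on a log axis, ordered by the DMSO mean; points are means of 3 libraries and lines run from the lowest to the highest library. In each set the 3 groups lie close together for nearly every gene, from PCNA at 199 RPKM down to CCNE1 at 1.23 in DMSO.

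S phase genes did not pass the test in any comparison with vehicle. At 24 h none of the 23 was called higher or lower (adjusted p under 0.05, edgeR quasi-likelihood test, Benjamini-Hochberg over all genes), where 2.15% of all tested genes were called, 0.969% higher and 1.18% lower. At 72 h again 0 of 23 were called, where 6.02% of all genes were, 2.89% higher and 3.13% lower. DESeq2 and limma-voom also called 0 in both comparisons. At an unadjusted p under 0.05 (edgeR) there was 1 gene higher at 24 h, and 2 higher and 1 lower at 72 h. Of all 14965 genes, 986 were higher and 931 lower by that rule at 24 h, and 1362 and 1417 at 72 h. The median log2 fold change of the set was 0.03 at 24 h and 0.04 at 72 h, beside 0.01 and -0.00 over all genes tested.

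The data bound how large a change could be. For 22 of 23 S phase genes at 24 h and 21 of 23 at 72 h, the 95% interval of the log2 fold change lay within 0.5 of 0, which is 1.41-fold. Over all tested genes 55.7% and 52.2% had such an interval, and over the 11347 genes in the members' level range 72.1% and 67.6% did. Intervals are not adjusted for the number of genes. CCNE1, a cyclin that drives S phase entry and a gene of low counts, was outside this bound at both times, and CCNE2 was at 72 h (interval 0.06 to 0.56). The CPM of CCNE1 was 3.62, 2.50 and 3.29 in DMSO, 2.39, 2.08 and 3.36 at 24 h, and 2.18, 1.91 and 2.40 at 72 h. All 3 libraries at 72 h were below all of DMSO, and the log2 difference of -0.53 ± 0.26 (SE, interval -1.08 to 0.01) did not pass the test (adjusted p = 0.283, edgeR).

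The origin licensing and helicase genes, 11 of the set, had medians of -0.00 at 24 h and 0.02 at 72 h. Their log2 fold changes ran from -0.14 to 0.11 at 24 h and from -0.08 to 0.17 at 72 h, and every interval was within 0.5 of 0. MCM4 had 554.8, 585.4 and 643.4 CPM in DMSO, 606.7, 591.7 and 581.6 at 24 h, and 564.1, 581.5 and 577.9 at 72 h. All treated libraries lay inside the DMSO range. MCM2, another helicase subunit, had 315.6 to 376.3 CPM in DMSO, 331.7 to 359.1 at 24 h and 347.9 to 358.9 at 72 h, again inside that range. CDC6, the loader of the helicase, was at 135.7 to 145.2 CPM in DMSO and at 139.3 to 143.9 at 72 h. At 24 h its first and second libraries were lower (118.6 and 121.4) and the third higher (152.1).

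The polymerase clamp and its loader gave small positive values. PCNA had 268.9, 289.8 and 320.9 CPM in DMSO, 282.8, 307.7 and 340.7 at 24 h, and 311.6, 311.1 and 320.3 at 72 h, with overlapping groups. RFC4, a subunit of the clamp loader, had the set's highest log2 fold change at 24 h, 0.26 ± 0.09 (interval 0.08 to 0.45, adjusted p = 0.175). Its CPM was 43.7 to 52.8 in DMSO and 57.4 to 59.9 at 24 h, with no overlap between groups. At 72 h the difference was 0.14 ± 0.09 and the groups overlapped (52.2 to 56.4 CPM).

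Among genes of nucleotide supply the third 24 h library stood out. RRM2, the small and cell cycle dependent subunit of ribonucleotide reductase, had 226.5, 244.4 and 252.5 CPM in DMSO, 211.5, 214.4 and 327.5 at 24 h, and 256.4, 252.8 and 245.0 at 72 h. RRM1 followed the same order, with 237.7, 259.5 and 269.2, then 225.6, 237.3 and 313.6, then 276.2, 279.8 and 267.3. In both, the first and second 24 h libraries were below all of DMSO and the third above all of it. Thymidylate synthase (TYMS) had 154.1 to 156.9 CPM in DMSO, 144.5 to 160.5 at 24 h and 161.4 to 179.9 at 72 h, and its log2 difference at 72 h of 0.12 ± 0.07 did not pass (adjusted p = 0.403).

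Entry regulators held the widest spread at 72 h. UHRF1 had 339.3, 357.7 and 320.1 CPM in DMSO and 302.2, 295.5 and 271.8 at 72 h. Every 72 h library was below every DMSO library, with a log2 difference of -0.23 ± 0.08 (interval -0.39 to -0.06, adjusted p = 0.109). UHRF1 was called lower in the fit without 24 h replicate 3 (-0.23, adjusted p = 0.0235). Cyclin E2 (CCNE2) was on the other side, at 14.6, 15.5 and 17.2 CPM in DMSO and 20.5, 18.9 and 19.2 at 72 h (0.31 ± 0.12, adjusted p = 0.156). Of its exon bases 37.0% lie under INTS8, and without strand the reads of both cannot be told apart. E2F1 itself was level, at 144.3 to 164.5 CPM in DMSO, 154.9 to 188.2 at 24 h and 157.8 to 168.2 at 72 h. Over all 23 S phase genes the 72 h and DMSO libraries did not overlap in 7 genes that were higher and 3 that were lower. Of all tested genes 30.7% did not overlap, 15.5% higher and 15.2% lower. At 24 h this held for 2 S phase genes higher and 1 lower, where 13.5% of all genes did not overlap, 6.73% higher and 6.74% lower.

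**Figure D2:**
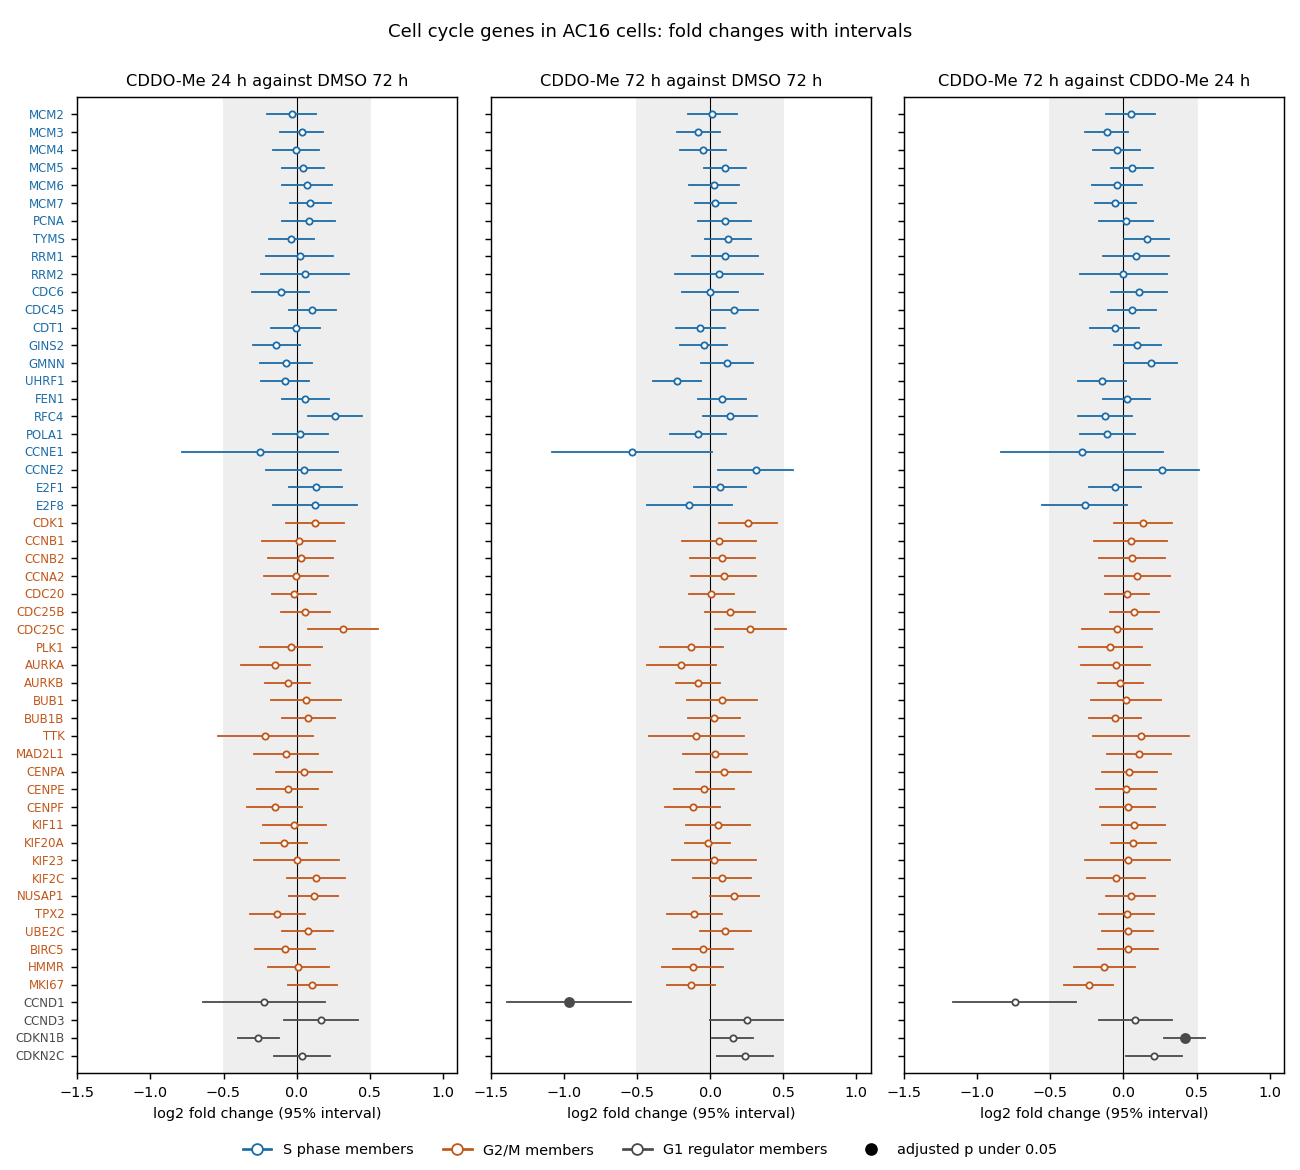
Log2 fold changes with 95% intervals for the 54 tested genes in 3 comparisons (panels); filled points passed an adjusted p of 0.05 and the grey band spans 0.5 on each side of 0. Filled points are CCND1 at 72 h (-0.96) and CDKN1B at 72 h against 24 h (0.42), and no S phase or G2/M gene is filled.

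G2/M genes also gave no call against vehicle with all libraries in the fit. None of the 27 passed at 24 h or at 72 h (edgeR), where 2.15% and 6.02% of all genes did. DESeq2 and limma-voom called 0. At an unadjusted p under 0.05 (edgeR) there was 1 gene higher at 24 h, 2 were higher at 72 h, and 0 were lower. Of all 14965 genes, 986 were higher and 931 lower by that rule at 24 h, and 1362 and 1417 at 72 h. The median log2 fold change of the 27 genes was -0.00 at 24 h and 0.03 at 72 h. The interval was within 0.5 of 0 for 25 of 27 genes at 24 h and for 26 of 27 at 72 h, and no bound reached further than 0.56. Of all genes 55.7% and 52.2% had such an interval, and of the genes in the members' level range 72.1% and 67.6%. In bulk RNA, fewer cells in a phase and less RNA per cell in that phase cannot be told apart.

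Mitotic cyclins and their kinase were all on the positive side at 72 h. CDK1, the kinase of mitotic entry, had 123.1, 122.1 and 147.0 CPM in DMSO, 126.9, 159.0 and 141.9 at 24 h, and 157.1, 153.0 and 159.9 at 72 h. Its 72 h libraries were above all of DMSO, and the difference of 0.26 ± 0.09 did not pass (adjusted p = 0.131). CDC25C had the set's highest values, 0.32 ± 0.11 at 24 h (adjusted p = 0.210) and 0.28 ± 0.11 at 72 h (adjusted p = 0.194), from 20.1 to 23.8 CPM in DMSO, 25.5 to 30.9 at 24 h and 25.0 to 29.2 at 72 h. Neither treated group overlapped DMSO. CDC25B, a related phosphatase and the most expressed gene of this role by CPM, had 330.8 to 381.7 CPM in DMSO and 387.4 to 398.0 at 72 h (0.14 ± 0.08, adjusted p = 0.396). CCNB1 had 329.8, 298.0 and 343.7 CPM in DMSO, 287.8, 285.5 and 406.5 at 24 h, and 341.8, 341.1 and 331.2 at 72 h. Its 72 h libraries lay inside the DMSO range and its 24 h libraries on both sides of it.

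The 4 genes of mitotic kinases and the passenger complex were all on the negative side at 72 h. AURKA, which matures the centrosomes, had 286.7, 253.8 and 267.3 CPM in DMSO and 237.9, 240.4 and 226.2 at 72 h, with no overlap (-0.20 ± 0.11, adjusted p = 0.368). PLK1 had 313.4 to 360.7 CPM in DMSO and 303.3 to 310.8 at 72 h (-0.13 ± 0.10, adjusted p = 0.546). BIRC5, or survivin, a passenger complex subunit, had 248.2 to 253.2 and 237.9 to 246.0 (-0.05 ± 0.10). Over the 27 genes, 5 were higher and 4 lower with no overlap at 72 h, near the 15.5% and 15.2% of all genes. At 24 h 2 were higher and 0 lower, beside 6.73% and 6.74% of all genes.

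Spindle checkpoint, kinetochore and spindle genes had medians of 0.03, -0.04 and 0.03 at 72 h. BUB1, a checkpoint kinase, had 130.3, 119.2 and 134.6 CPM in DMSO and 134.1, 139.7 and 132.7 at 72 h. CENPF had 327.0 to 418.0 CPM in DMSO, 320.4 to 345.8 at 24 h and 323.2 to 352.8 at 72 h, with overlapping groups. TPX2 had 483.9, 482.1 and 492.0 CPM in DMSO, 406.7, 410.3 and 513.6 at 24 h, and 453.2, 458.8 and 441.1 at 72 h. Its 72 h libraries were all below DMSO by a small step (-0.11 ± 0.09, adjusted p = 0.566). CDC20 had 361.1 to 383.4 CPM in DMSO, 345.4 to 389.7 at 24 h and 371.7 to 377.6 at 72 h. MKI67 had 606.8, 604.8 and 541.2 CPM in DMSO, 616.8, 628.2 and 643.7 at 24 h, and 514.6, 575.2 and 512.3 at 72 h, so that its 24 h libraries were above DMSO (0.11 ± 0.08, adjusted p = 0.630).

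**Figure D3:**
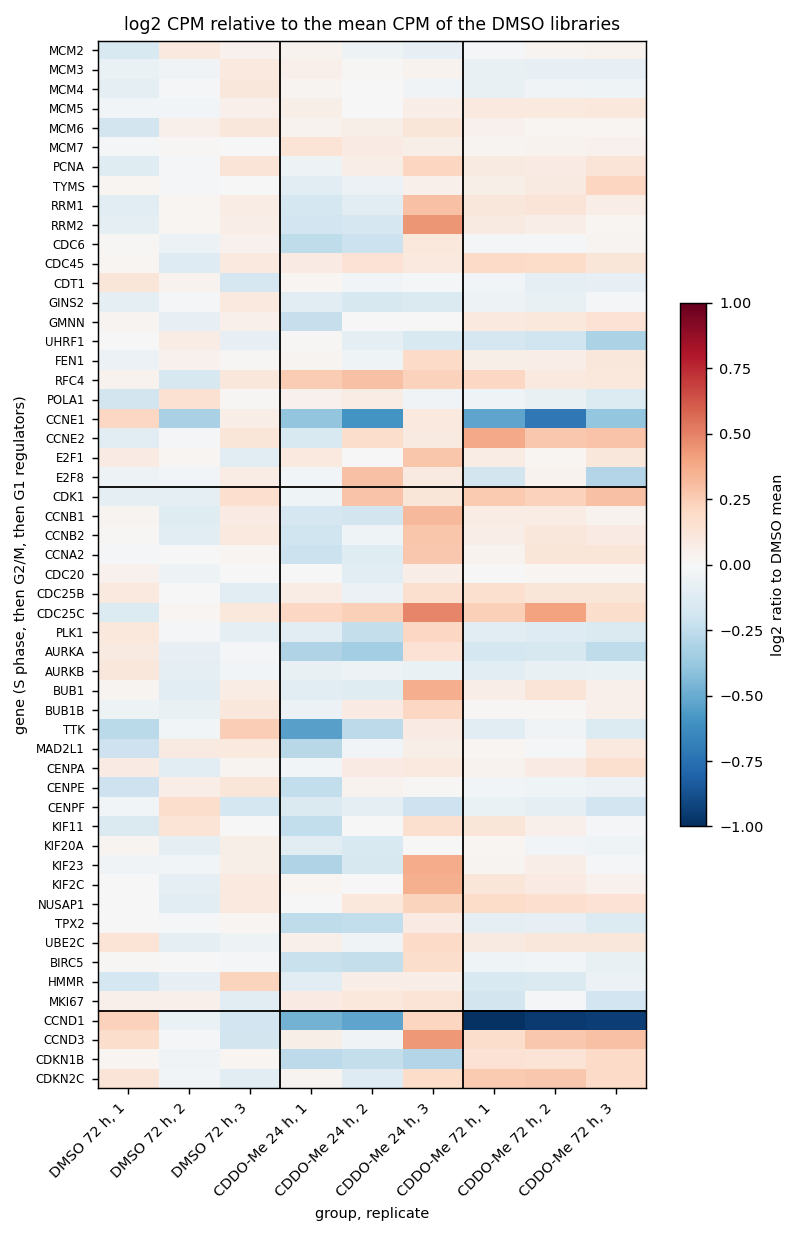
Log2 ratio of each library's CPM to the DMSO mean for the 54 tested genes (rows) in 9 libraries (columns), blue lower and red higher. The third 24 h column is red over most G2/M rows, the first and second 24 h columns are mostly blue there, and the CCND1 row is dark blue in all 72 h libraries.

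The 24 h result depended on 1 library. The 27 G2/M genes summed to 5351 and 5445 CPM in 24 h replicates 1 and 2 and to 6407 in replicate 3, against 5699 to 5820 in DMSO and 5637 to 5803 at 72 h. In replicate 3 24 of 27 G2/M genes were above the DMSO mean, and in replicates 1 and 2 it was 6 and 10. In the DMSO libraries it was 14, 9 and 19, a range that holds the value of 24 h replicate 2. The S phase genes summed to 4638, 4574 and 4890 CPM at 24 h, with the third again above the DMSO range of 4452 to 4763. Replicate 3 over the mean of the others gave 1.54 for RRM2, 1.51 for the cytokinesis kinesin KIF23, 1.42 for CCNB1, 1.40 for BUB1 and 1.38 for AURKA. The 6 MCM genes were between 0.95 and 1.05 on the same ratio, and the medians were 1.16 for G2/M and 1.02 for S phase genes. The same library had the lowest sum of the 9 fibroblast markers (12667 CPM, against 19148 and 17967 in its group). It was also lowest for 6 long nuclear RNAs (365 CPM, against 537 and 567 in its group and 376 to 424 at 72 h). The 3 NRF2 targets summed to 3356 CPM in it, against 2057 and 2183 in its group and 4506 to 4699 at 72 h. The part of these differences in the result was not tested.

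Without this library, 4 of 27 G2/M genes and 1 of 23 S phase genes were lower than DMSO at 24 h, while 10.8% of all genes were called in that fit (edgeR, adjusted p under 0.05). The 4 were AURKA (-0.32 ± 0.07, adjusted p = 0.00518), TPX2 (-0.25 ± 0.06, adjusted p = 0.0103), BIRC5 (-0.23 ± 0.06, adjusted p = 0.0212) and KIF23 (-0.23 ± 0.07, adjusted p = 0.0336). The S phase gene was CDC6 (-0.24 ± 0.07, adjusted p = 0.0290). With DMSO replicate 1 left out too, 7 G2/M genes were lower and 0 higher, and 3 S phase genes were lower (CDC6, RRM1 and RRM2) and 1 higher (RFC4), where 22.8% of all genes were called. The greatest of these decreases was in TTK, a checkpoint kinase (-0.51 ± 0.09, adjusted p = 0.000128). RRM1 changed its sign between fits, from 0.02 ± 0.11 with all libraries to -0.19 ± 0.06 (adjusted p = 0.0218) without both. In the comparison of 72 h with DMSO, the fit without 24 h replicate 3 called CDK1 higher (0.26, adjusted p = 0.0495) and AURKA lower (-0.20, adjusted p = 0.0392), where 12.9% of all genes were called.

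**Figure D4:**
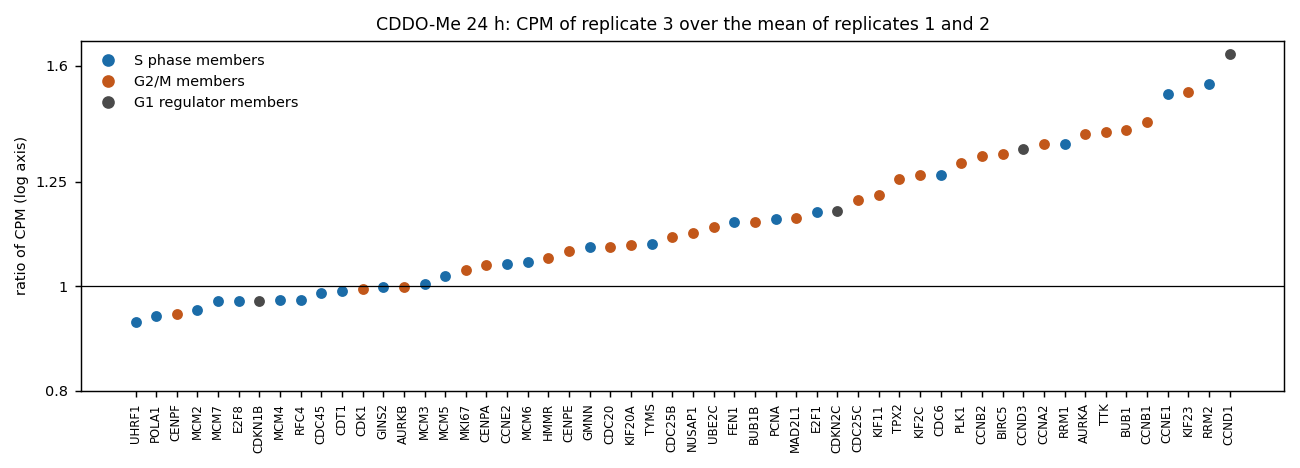
Ratio of CPM in 24 h replicate 3 to the mean of 24 h replicates 1 and 2 for the 54 tested genes, ordered by the ratio, on a log axis. CCND1 (1.64), RRM2 (1.54) and KIF23 (1.51) are at the right end, and 13 of 27 G2/M but 4 of 23 S phase genes are above 1.2.

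Of the G1 regulators, cyclin D1 fell at 72 h. CCND1, the D cyclin that couples growth signals to RB phosphorylation, had 197.2, 160.6 and 147.0 CPM in DMSO, 120.9, 116.6 and 194.8 at 24 h, and 84.7, 86.4 and 87.4 at 72 h. All 72 h libraries were below every other library. The log2 fold change against DMSO was -0.96 ± 0.19 (interval -1.39 to -0.54, adjusted p = 0.0156, edgeR), or 1.95-fold lower. Of its exon bases 10.3% are shared with LTO1, which had a mean of 18.6 CPM. Leaving out any 1 of the 72 h libraries kept the size (-0.95 to -0.98) but gave adjusted p = 0.0710, 0.0661 and 0.0652, so the call needed all 3 of them. DESeq2 (adjusted p = 6.52e-07) and limma-voom (adjusted p = 0.00517) also called it lower, and without 24 h replicate 3 the adjusted p was 3.37e-07. With the replicate number as a block in the fit, CCND1 was not called.

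At 24 h cyclin D1 was not called with all libraries (-0.22 ± 0.19, adjusted p = 0.696) and was lower without replicate 3 (-0.50 ± 0.10, adjusted p = 0.00236). Replicates 1 and 2 were below DMSO and replicate 3 was inside its range. CCND3, the gene for cyclin D3, had 172.2, 150.0 and 134.1 CPM in DMSO, 158.1, 148.4 and 205.6 at 24 h, and 171.9, 183.8 and 186.8 at 72 h. Its difference at 72 h was 0.25 ± 0.12 (adjusted p = 0.273), opposite in sign to CCND1, and it was called higher without 24 h replicate 3 (adjusted p = 0.0400). Per length, CCND1 fell from 34.8 to 17.8 RPKM while CCND3 stood at 26.2 RPKM in DMSO and 31.2 at 72 h.

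The CDK inhibitor p27 transcript differed between the treated groups. CDKN1B had 135.2, 130.6 and 135.3 CPM in DMSO, 111.7, 113.6 and 109.0 at 24 h, and 147.5, 146.8 and 152.4 at 72 h. The 3 groups did not overlap: 24 h was lowest and 72 h highest. It was higher at 72 h than at 24 h by 0.42 ± 0.07 on the log2 scale (interval 0.28 to 0.56, adjusted p = 0.00659, edgeR), where 1.02% of all genes were called, 0.448% higher and 0.568% lower. Against DMSO it missed the threshold at 24 h (-0.26 ± 0.07, adjusted p = 0.0564) and at 72 h (0.16 ± 0.07, adjusted p = 0.208). The 24 h value was called by DESeq2 (adjusted p = 0.00643), and without 24 h replicate 3 (adjusted p = 0.0205). The difference between treated groups lost its call without any 1 of the 72 h libraries (0.40 to 0.43, adjusted p = 0.0581, 0.0528 and 0.0734). CDKN2C, the gene for the CDK4 and CDK6 inhibitor p18, had 101.6 to 120.7 CPM in DMSO, 100.8 to 125.2 at 24 h and 125.6 to 133.0 at 72 h. Its 72 h libraries were above all others (0.24 ± 0.09 against DMSO, adjusted p = 0.143).

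**Figure D5:**
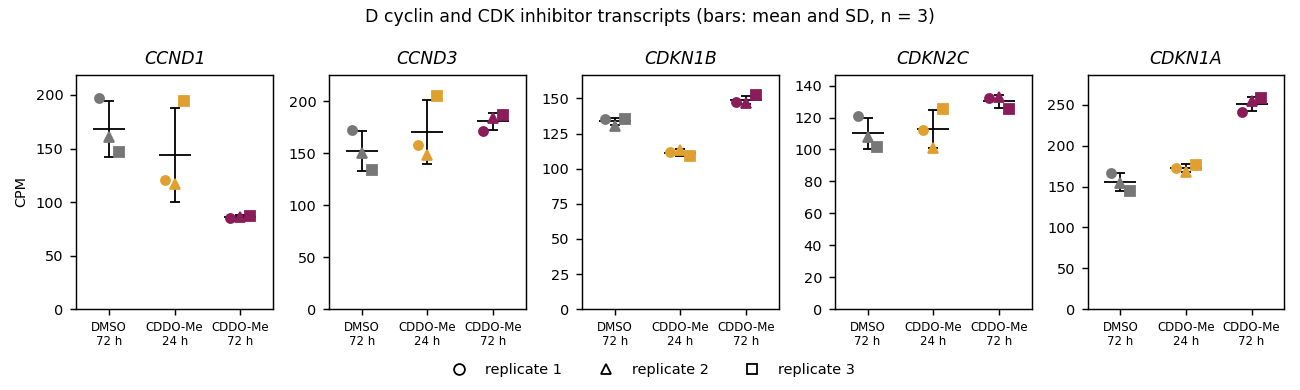
CPM of CCND1, CCND3, CDKN1B, CDKN2C and CDKN1A in each library (symbols by replicate), with the mean and SD of 3 libraries per group. CCND1 is at 84.7 to 87.4 in the 72 h libraries, below all others, and CDKN1B and CDKN1A are highest at 72 h.

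Between 24 h and 72 h of CDDO-Me none of the 23 S phase and none of the 27 G2/M genes was called (edgeR, DESeq2 and limma-voom). In edgeR 1.02% of all genes were called, 0.448% higher and 0.568% lower. At an unadjusted p under 0.05, 3 S phase genes were higher and 1 G2/M gene lower, where 861 of all 14965 genes were higher and 1107 lower. Median log2 differences were 0.00 and 0.03. The G2/M gene was MKI67, which was lower at 72 h in every library (-0.24 ± 0.08, interval -0.40 to -0.07, adjusted p = 0.192). The interval was within 0.5 of 0 for 20 of 23 and 27 of 27, beside 55.6% of all genes and 71.9% of those in the members' level range. Libraries of both groups did not overlap for 5 S phase genes that were higher at 72 h and 7 that were lower, and for 0 and 1 G2/M genes. Over all genes 21% did not overlap, 10.8% higher and 10.2% lower. Without 24 h replicate 3, 3 of 23 S phase genes (CDC6, RRM1 and RRM2) were called higher at 72 h than at 24 h. So were 3 of 27 G2/M genes (CCNA2, CCNB1 and KIF23). The log2 differences were 0.24 to 0.26. In that fit 12% of all genes were called in either direction, which is near the share in each set. The comparisons share their DMSO or 24 h libraries and are not independent of each other.

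Other cell cycle genes, from lists that hold none of the members, were tested in the same fit. Of 44 further S phase genes 0 passed in any of the 3 comparisons, with medians of 0.01, 0.02 and 0.01. Of all genes 2.15%, 6.02% and 1.02% passed (edgeR), and the same shares apply to the edgeR counts of the next lists. At an unadjusted p under 0.05, 2, 4 and 3 of the 44 were higher and 1, 2 and 2 lower. By the same rule 986, 1362 and 861 of all 14965 genes were higher and 931, 1417 and 1107 lower. DESeq2 called 1 of the 44, POLE, lower at 72 h than at 24 h, where it called 2.63% of all genes, and limma-voom called 0. Without 24 h replicate 3 the counts were 1, 3 and 3, where 10.8%, 12.9% and 12% of all genes were called. Of 63 further G2/M genes 1 passed in edgeR: SPC25, a subunit of the NDC80 kinetochore complex, rose at 72 h against DMSO (0.40 ± 0.11, adjusted p = 0.0454), from 23.3 to 28.9 CPM in DMSO to 32.8 to 37.2. WEE1, the kinase that holds CDK1 inactive, had 78.9 to 83.1 CPM in DMSO and 54.5 to 68.4 at 24 h, with no overlap (-0.34 ± 0.09, adjusted p = 0.0728, edgeR). DESeq2 called WEE1 lower at 24 h, and a fit with no filter called WEE1 and ANLN. WEE1, and CDK6 in the next list, were chosen after their values were seen. Without 24 h replicate 3, 9 of the 63 were lower at 24 h than in DMSO and 9 were higher at 72 h than at 24 h, where 10.8% and 12% of all genes were called. SPC25 lost its call in limma-voom (adjusted p = 0.0524) and without any 1 of DMSO replicates 1 and 2, 24 h replicate 2 or the 72 h libraries (adjusted p = 0.0654 to 0.231). Of 19 cell cycle transcription factors and RB family genes, E2F2 rose at 24 h (0.46 ± 0.10, adjusted p = 0.0303), from 31.0 to 38.4 CPM in DMSO to 41.8 to 51.0. E2F2 lost its call in a fit of both groups alone (adjusted p = 0.148), and without any 1 of DMSO replicates 1 and 3, 24 h replicates 1 and 2 or the 72 h libraries (adjusted p = 0.0625 to 0.124). FOXM1, which drives G2/M genes, had 394.1 to 429.7 CPM in DMSO, 362.4 to 446.6 at 24 h and 379.0 to 393.4 at 72 h, with adjusted p = 0.963 and 0.609. MYBL2, the gene for B-MYB, had 344.4 to 396.5, 325.5 to 356.1 and 381.8 to 385.8 CPM.

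Of 12 further CDK and CDK inhibitor genes, CDKN1A rose at 72 h. CDKN1A encodes p21, a CDK inhibitor that p53 is known to induce. It had 167.2, 153.8 and 145.1 CPM in DMSO, 172.8, 168.1 and 176.9 at 24 h, and 241.4, 254.6 and 257.7 at 72 h. The 72 h libraries were above all others, and the 24 h libraries above DMSO. The log2 fold change at 72 h was 0.69 (adjusted p = 5.31e-05, edgeR). It was higher at 72 h than at 24 h by 0.54 ± 0.07 (adjusted p = 0.00238, edgeR), and this call stayed in every alternative run (adjusted p at most 0.0290). At 24 h the difference from DMSO was 0.15 ± 0.07 (adjusted p = 0.414). CDK6, the gene for a partner kinase of D cyclins, had 72.9, 87.7 and 54.3 CPM in DMSO, 49.3, 47.2 and 56.0 at 24 h, and 60.4, 56.2 and 54.1 at 72 h. Its differences of -0.49 ± 0.14 at 24 h (adjusted p = 0.106) and -0.33 ± 0.14 at 72 h (adjusted p = 0.215) did not pass in edgeR. CDK6 was called lower at 24 h by DESeq2 and without 24 h replicate 3, and at both times with no filter and without DMSO replicate 3. In the same 72 h libraries, where CDKN1A was higher and CCND1 lower, the S phase genes summed to 4676, 4679 and 4681 CPM, against 4452, 4649 and 4763 in DMSO. The 6 long nuclear RNAs, of which 0 passed the test, summed to 376 to 424 CPM in these libraries and to 400 to 538 in DMSO. Their median log2 difference was -0.61. With no overlap 3 of 6 were lower and 1 higher, where 15.2% of all genes were lower and 15.5% higher. The part of these RNAs in the CCND1 and CDKN1A differences was not tested.

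Exon bases of 23 of the 55 members overlap another gene, and 6 members share over 10%: CCNE2, RRM2, TYMS, PLK1, CCND1 and BUB1B. Under that mark, CDC25C shares 9.62% with FAM53C, which had 102 CPM against 25.4 for CDC25C, and CENPA shares 6.96% with SLC35F6 (82.3 CPM against 39.3). Values of genes that overlap a more expressed neighbour are uncertain. Beside CCNE2 and CCND1, TYMS shares 18.8% with ENOSF1 (24.6 CPM, against 158 for TYMS), and the genes that overlap RRM2, PLK1 and BUB1B by that much were below 1 CPM. The 25 listed pseudogenes of members held at most 2.67 CPM in any library, and how reads that match several places were counted is not given in the sources used here.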

How the data were processed

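Polyadenylated RNA of 9 AC16 samples was sequenced from unstranded TruSeq v2 libraries, per the labels' protocols. The authors deposited whole-number read counts per Ensembl gene, with no normalization. Alignment and counting used STAR, SAMtools and Subread (featureCounts) on hg38 (GRCh38), per the submitters' processing notes. Their versions and settings are not given in sources used here. The kit does not mark strand, so reads where genes on opposite strands overlap cannot be assigned by strand. How such reads were counted is not given.

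Each library's group and number were read from its labels. Counts were scaled by TMM and tested with edgeR 4.0.16 (R 4.3.3; filterByExpr, robust quasi-likelihood fit, 3 group means over all 9 libraries), with Benjamini-Hochberg adjustment over 14965 genes and a threshold of 0.05. The common biological coefficient of variation was 11.5%. Standard errors were derived from the fold change and its F statistic, and 95% intervals use the same degrees of freedom. RPKM used the exon length of the gene models. The fit was tested on data simulated from the fitted spread with no library set apart, so that test does not cover the departure of 24 h replicate 3. DESeq2 1.42.0, limma 3.58.1, other scalings and filters, left-out libraries and a replicate term were alternatives.

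Genes were named by a rule: in each role and comparison, members past the threshold, or else the most expressed one, and called genes of the other lists with CDKN1A, FOXM1 and MYBL2. Other members are named after their values were seen. The members and lists were chosen with earlier results of these data known.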

Additional observations from a re-analysis of the deposited data

Results flagged for a closer look

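CDKN1B differed between the treated groups, by a direct test of 72 h against 24 h. It was 0.42 higher on the log2 scale at 72 h (adjusted p = 0.00659, edgeR). Against DMSO it was at -0.26 at 24 h and 0.16 at 72 h. The test of 72 h against 24 h gave 0.54 for CDKN1A (adjusted p = 0.00238, edgeR), with 0.15 at 24 h and 0.69 at 72 h against DMSO. The only DMSO group was of 72 h, so exposure time and culture time cannot be told apart in this test. In both genes 3 of 3 libraries at 72 h were above 3 of 3 at 24 h. Groups of 3 libraries were not tested for outliers.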

How the results depend on the processing

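Of 180 counts of called genes recomputed under the alternatives, 147 stayed within 1.5 times or stayed at 0, and none of the 27 under other library size factors moved. In the main fit all S phase and G2/M counts and the G1 count at 24 h were 0. The 147 therefore say little about the stability of called genes. Of 1000 single-gene values 959 kept their side of the threshold. Some of these changed sign without being called in any setting. Against DMSO at 24 h, MCM4 ran from -0.051 to 0.057 and BUB1 from -0.118 to 0.145 over the alternatives (log2).

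Leaving out 1 library at a time gave 0 to 1, 0 to 1 and 0 to 3 S phase calls (24 h and 72 h against DMSO, then 72 h against 24 h), 0 to 4, 0 to 2 and 0 to 3 G2/M calls, and 0 to 2, 0 to 3 and 0 to 3 G1 calls. Calls among all genes ran from 134 to 1657, 401 to 1972 and 32 to 1843 in the same fits. The upper ends came without 24 h replicate 3, and CDK1 was also called without DMSO replicate 3. Without both 24 h replicate 3 and DMSO replicate 1 the counts were 4, 1 and 6 for S phase, 7, 2 and 8 for G2/M, and 2, 3 and 4 for G1, where 22.8%, 17.9% and 22.8% of all genes were called, and RRM1 reversed to -0.19 at 24 h. In fits of the 2 groups compared alone, 72 h against DMSO gave 1 S phase call (UHRF1), 2 G2/M calls (AURKA and CDK1) and 2 G1 calls, where 12.2% of all genes were called. DESeq2 gave 1 G1 call at 24 h (CDKN1B) and 2 for 72 h against 24 h, where it called 3.65% and 2.63% of all genes. A minimum of 1 CPM in 3 libraries gave 1 G1 call at 24 h (2.36% of all genes), and no filter gave 2 for 72 h against 24 h (1.71% of all genes). The cause was not tested.

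With the replicate number as a block, G1 calls at 72 h against DMSO went from 1 to 0 (CCND1, adjusted p = 0.0614), and no other count of these sets moved. Same-numbered libraries had deviations that correlated at -0.03 to 0.08 over 9 pairs, none over 0.1, so the numbers were not taken to pair the samples. Of 18 best matches 12 had the same number, a hint from the data and not from the design.

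With 3 libraries a group, the median 95% interval reached 0.17 to 0.21 on either side for S phase and G2/M genes, before adjustment over all genes. RFC4 at 24 h (0.26), CCNE2 at 72 h (0.31) and CDC25C at 24 h (0.32) had intervals that excluded 0 and were not called after adjustment.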
